A study of Mus musculus with 12 samples.

Results

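The comparison was made on the hypoxia membranes of a mouse fracture study, day 10 against day 7 after a broken femur, and covered 4 of the 12 samples of the series. They were chosen by their titles, which name the array type, the genotype and the post fracture day, and all 100 genes of the array were followed. The groups were callus of mice labelled HET for HIF-1a at day 10 and at day 7, and callus of WT mice at day 10 and at day 7, with 1 array per group. Every group, WT included, had a fixed closed fracture of the femur, and all samples are callus. Per the series title the HET mice are partly deficient in HIF-1alpha, while the sources used here do not say how that allele was made, nor the strain or age of the animals. Per the labels' protocols each sample was a pool of RNA from 3 animals, so no value below has a spread between animals. The study's design compared the genotypes at each day, and the question followed here, how the callus differed between the days, uses the same arrays along the other axis.

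A fracture callus is the repair tissue that bridges broken bone. An early inflammatory phase, in which cytokines such as interleukin-6 and interleukin-1 act, gives way to cartilage and then to bone matrix rich in type I collagen. The broken vessels leave the tissue poor in oxygen, and HIF-1alpha, a transcription factor subunit that is degraded when oxygen is plentiful, is known there for driving genes of glucose use, vessel growth and survival. The membranes carry probes for such genes together with genes of the cytoskeleton, protein synthesis and signalling.

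Each membrane held 112 spots, of which 106 belonged to the 100 genes and 6 were controls, either PUC18 plasmid DNA or a blank. Values are spot densities, an intensity on a linear scale with no local background. The median density of the gene spots was 1114 on the HET day 10 array and 263 on the HET day 7 array, against 301 on the WT day 10 array and 4.66 on the WT day 7 array. Control spots reached 805 and 391 in HET at days 10 and 7, and 99.5 and 12.7 in WT. The lowest density of any spot was 22.3 and 248 in HET at days 10 and 7, and 0 on both WT arrays. The HET day 7 median of 263 thus lay close to the lowest spot of its array, as did the many genes with densities near it. On 3 of the 4 arrays the brightest control was the same blank spot, which stands just before the Gapdh spots in the file order. A gene was taken as above background when its brightest spot exceeded every control on that array. Dim gene spots were not level on the HET day 10 array, where those at or below that threshold had a median density of 185 at positions 1 to 48 and 401 at positions 49 to 96. Their part in the results was not tested. At the upper end the highest density was between 47484 and 49983 on each array, and a gene at or above 44984, which is 90% of the highest density on any hypoxia array, was taken as near the scanner ceiling.

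More genes were above background at day 10 than at day 7 in both genotypes. In HET 53 of 100 genes were above it at day 10 and 20 at day 7, and in WT 56 at day 10 and 27 at day 7. Of the HET genes, 33 were above background at day 10 only, 20 at both days and 0 at day 7 only, while 47 were above it at neither day. In WT the numbers were 31, 25, 2 and 42. The 2 genes seen in WT at day 7 only were Th and Slc2a4. With the second-brightest control spot as threshold the counts were 69 and 35 in HET and 75 and 28 in WT, a threshold chosen after the data were seen. With a shared threshold, the brightest control of any of the 4 arrays, they were 53 and 17 in HET and 34 and 14 in WT, so the day 10 array held more genes under each threshold.

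**Figure D1:**
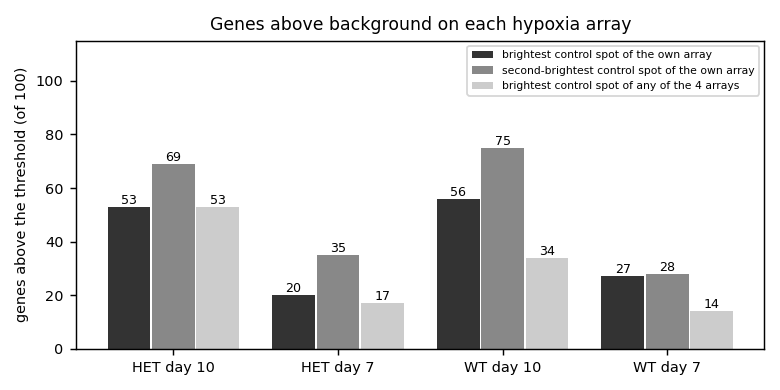
Number of the 100 genes above background on each of the 4 arrays (vertical axis) under 3 thresholds, which are the shades. The day 10 bar is taller than the day 7 bar of its genotype under every threshold, 53 against 20 in HET and 56 against 27 in WT with each array's own brightest control spot.

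In all, 62 genes were above background somewhere among the 4 arrays and 19 on every one of them. The other 38 were below it throughout and have no fold. Among them were the HIF subunit gene Epas1, the carbonic anhydrase genes Car1 and Car9, the adrenomedullin gene Adm, Epo, the leptin gene Lep, the glycolysis genes Eno1 and Gpi1, the growth factor genes Igf2 and Tgfb1, and the cytokine gene Il1a. The remaining names are Add1, Agpat2, Ard1, Birc5, Dapk3, Dctn2, Egfr, Gna11, Gpx1, Gsto1, Id1, Kit, Lipe, Lct, Man2b1, Mars, Mmp14, Nos2, Npy, Pdip, Rara, Rpl28, Rpl32, Sssca1, Tst, Tuba3 and Vars2. Of these 38, Gpx1, which encodes a glutathione peroxidase, had densities of 644 in HET at day 10 and 253 at day 7, against 67.6 and 0 in WT, all below the brightest control. It was picked after its values were seen.

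Near the ceiling at day 10 in both genotypes were 11 genes. They were Actb, Gapdh and Ppia, which serve as reference genes, the translation factor gene Eef1a1, the ribosomal protein gene Rps7, the proteasome subunit gene Psmb3, the small GTPase gene Cdc42, the ubiquitin-like modifier gene Sumo2, the matricellular protein gene Ctgf, Col1a1 and Mylpf, of which Ctgf and Mylpf were named after their values were seen. Cdc42 and Eef1a1 were there on all 4 arrays and have no fold. Col1a1, Ctgf and Actb were there on both HET arrays and have no fold in HET. Where a gene stood near the ceiling at day 10 only, its difference is a lower limit of its size.

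On log2 densities after background correction and with no normalization between arrays, the median difference of all 100 genes, day 10 minus day 7, was 3.62 in HET and 1.69 in WT. Differences are therefore given on 2 scales, without normalization and after quantile normalization, which sets every array to the same distribution and leaves only changes of rank. Before background correction the median gene spot densities of the 2 days stood farther apart by ratio in WT (301 and 4.66) than in HET (1114 and 263). The HET ratio includes the level of the lowest HET day 7 spot, 248. The order of the genotypes in the 2 median differences is thus not settled. Without normalization 43 of 48 HET genes that had a difference or bound were brighter at day 10 by 2-fold or more (89.6%) and 45 of 54 WT genes (83.3%), and 0 were dimmer by that much in either. After quantile normalization 3 of 18 HET genes were higher by 2-fold or more (16.7%) and 4 were lower (22.2%), and 4 of 31 WT genes were higher (12.9%) and 8 lower (25.8%). In both genotypes Rps2 was at least 2-fold higher, and Cat and Chga at least 2-fold lower, on that scale. A gene seen on only 1 array of a pair entered only where it had a bound, taken against the other array's faintest gene above background, or against its own value there if that was higher. After quantile normalization that left 3 of the 33 HET genes and 6 of the 31 WT genes seen at day 10 only. Genes seen at day 10 only could enter in 1 direction alone, so the unnormalized shares are a description of the arrays.

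Over both genotypes the day difference was tested with limma on all 6 hypoxia arrays, with genotype as a block. The genotypes are not repeat samples, so the spread in this test is how the day difference varies between them plus array error. Of 62 genes tested, 0 passed after quantile normalization (0%). The smallest adjusted p was 0.074, and 14 genes had an unadjusted p under 0.05. Without normalization the limma test called 38 genes higher (61.3%) and 0 lower. That count rests on both day 7 arrays. Without the HET day 7 array 0 genes passed (30 at an unadjusted p under 0.05, 61 of 62 estimates above 0), and without the WT day 7 array 0 passed (26 unadjusted, 62 of 62 above 0). It was 30 without the HET day 10 array and 45 without the WT day 10 array. It rests on the background correction too: on log2 of the density plus 1, without that correction, 0 genes passed (11 at an unadjusted p under 0.05, lowest adjusted p 0.258), while the median fitted difference was 4.30 against 4.24 with it. These checks were added after the data were seen. Every unnormalized adjusted p and pass below is from all arrays with background correction and carries these limits. The filter is a limit too, since 26 of the 62 genes tested were above background at day 10 in both genotypes and at day 7 in neither. Such genes entered through the day at which they were bright. The unnormalized shares and median of all genes tested, given beside the lists below, are therefore a description. A fitted value of a gene below background on an array uses the density measured there and is no bound. With arrays set level on the 4 reference genes it called 27 higher (43.5%) and 0 lower, and with each array centred on its median it called 5 higher (8.06%) and 9 lower (14.5%). Of the 4 reference genes, Actb, Gapdh and Ppia stood near the ceiling at day 10, so reference gene scaling uses spots at the limit of the scanner. The 9 lower under median scaling were Cdc42, Col1a1, Ctgf, Eef1a1, Psmb3, Sumo2, Ppia, Actb and Th. All but Th were near the ceiling at day 10, so these calls are no measure of a fall. The median fit gave every gene the same standard error, 1.20. Rps2, Il1b, Pea15, Spnb2 and Bhlhb2 passed as higher under each scaling except quantile. Of these, Bhlhb2 was named after its values were seen.

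**Figure D2:**
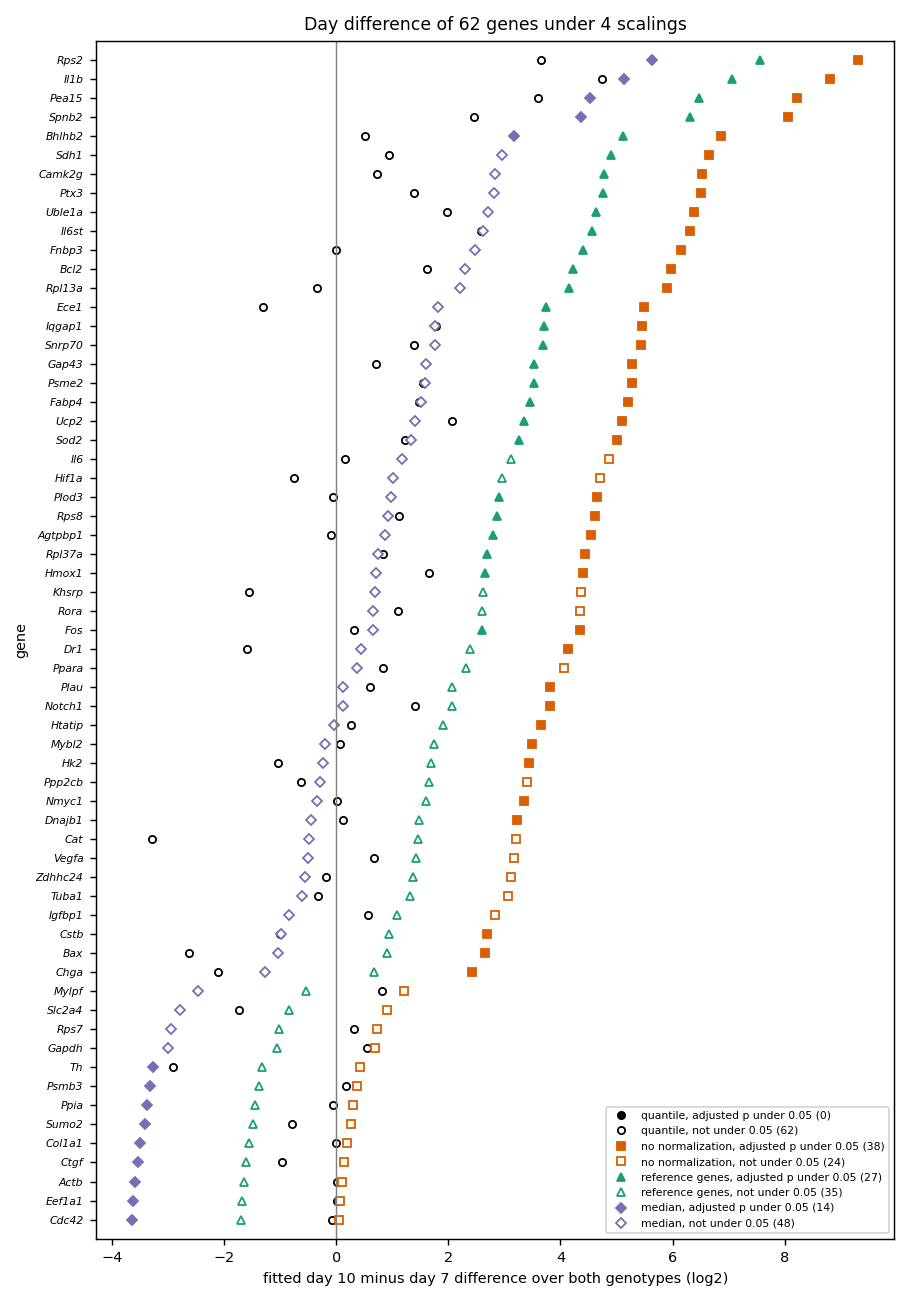
Fitted day 10 minus day 7 difference over both genotypes (log2, horizontal axis) for each of the 62 genes tested (vertical axis, ordered by the difference without normalization), with 1 symbol per scaling, filled where the limma adjusted p was under 0.05. Rps2, Il1b, Pea15 and Spnb2 head the list under no normalization and lie right of 0 under all 4 scalings, while Cat runs from -3.28 after quantile normalization to 3.20 without it.

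Il1b encodes the cytokine interleukin-1 beta, and its density was 21855 in HET at day 10 and 256 at day 7, against 8428 and 1.33 in WT. It was below background at day 7 in both genotypes. Among the 100 genes ordered from the brightest, it stood 16th in HET at day 10 and 81st at day 7, against 21st and 72nd in WT. The unnormalized difference was at least 7.26 log2 units in HET and at least 7.76 in WT after background correction, and at least 5.75 in HET and 9.28 in WT without it, so the bound depends on that step. The fitted difference was 8.81 (standard error 0.88, limma adjusted p = 0.007). After quantile normalization the fitted difference was the highest of all genes, at 4.74 (standard error 0.74, limma adjusted p = 0.088). That value uses day 7 densities below background. The bounds on the quantile scale were only at least 1.45 in HET and at least 0.92 in WT.

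Ptx3, which encodes a secreted pattern-recognition protein made under inflammatory cytokines, had densities of 10636 in HET at day 10 and 609 at day 7, against 8682 and 3.00 in WT. The HET gene was above background at both days and the WT gene at day 10 only. Its fitted difference without normalization was 6.50 (standard error 1.06, limma adjusted p = 0.015), but after quantile normalization it was 1.38, with -0.69 in HET and at least 1.24 in WT. Il6, the gene of the acute-phase cytokine interleukin-6, had densities of 41858 in HET at day 10 and 12510 at day 7, against 13516 and 28.6 in WT. It was thus already bright at day 7 on the array labelled HET. The unnormalized difference was 1.77 in HET and 7.95 in WT, and the fitted value of 4.86 had a standard error of 2.97 (limma adjusted p = 0.23).

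Il6st, which encodes the receptor subunit shared by the interleukin-6 family of cytokines, was below background at day 7 in both genotypes and above it at day 10. Its densities were 3878 in HET at day 10 and 260 at day 7, against 1552 and 0 in WT. The gene had, with Pea15, the lowest adjusted p of the quantile scale, 0.074 by limma, at 2.59 (standard error 0.28), and without normalization it passed at 6.30. Of the 11 genes listed under cytokines and inflammation 5 are on the array, and 2 of the 3 above background passed without normalization and with reference gene scaling, beside 61.3% and 43.5% of all genes tested. Their median was 6.50 without normalization, against 4.24 over all genes tested, and 1.38 after quantile normalization, against 0.29. The other list members on the array, Il1a and Nos2, were below background on all 4 arrays.

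The promoters of the 3 cytokine list members above background are shown because all 3 genes were above background at day 10 in both genotypes. The windows run from 250 bases before to 50 after the annotated start in the RefSeq annotation of GRCm38.p6, and Il6 lies at chr5:30012864-30013163 on the plus strand, Il1b at chr2:129371090-129371389 on the minus strand and Ptx3 at chr3:66219637-66219936 on the plus strand. Capitals mark matches, on either strand, to the hypoxia response cores ACGTG and GCGTG, the AP-1 motif TGANTCA, a kappa B motif and a C/EBP motif TTGNGCAA.
Il6: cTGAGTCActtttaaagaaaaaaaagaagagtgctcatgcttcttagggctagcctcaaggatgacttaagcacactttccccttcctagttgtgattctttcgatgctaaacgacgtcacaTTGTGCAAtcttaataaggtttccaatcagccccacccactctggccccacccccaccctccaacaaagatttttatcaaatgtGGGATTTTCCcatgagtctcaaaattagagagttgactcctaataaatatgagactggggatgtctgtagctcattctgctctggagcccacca
Il1b: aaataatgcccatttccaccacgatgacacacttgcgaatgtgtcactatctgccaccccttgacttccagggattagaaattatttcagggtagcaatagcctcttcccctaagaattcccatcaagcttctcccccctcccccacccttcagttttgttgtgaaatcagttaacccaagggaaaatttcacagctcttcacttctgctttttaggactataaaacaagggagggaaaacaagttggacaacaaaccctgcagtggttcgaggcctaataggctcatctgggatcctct
Ptx3: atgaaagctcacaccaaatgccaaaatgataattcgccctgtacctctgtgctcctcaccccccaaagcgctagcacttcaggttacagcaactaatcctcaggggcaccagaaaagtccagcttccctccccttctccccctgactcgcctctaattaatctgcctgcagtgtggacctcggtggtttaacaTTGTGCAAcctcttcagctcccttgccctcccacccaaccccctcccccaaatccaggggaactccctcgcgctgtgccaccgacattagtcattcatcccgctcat
Neither hypoxia core was in any of these windows. Il6 held an AP-1 match (TGAGTCA), a C/EBP match (TTGTGCAA) whose first base lies 128 bases before the start, and a kappa B match (GGGATTTTCC) 44 bases before it. Ptx3 held the same C/EBP letters 57 bases before its start, and Il1b held no match in this window. The C/EBP motif was added after the sequences were seen. Of 32851 promoters of this length in the table, 2.94% held the C/EBP motif, 0.411% the kappa B motif, 7.81% the AP-1 motif, 19.6% the core ACGTG and 32.4% the core GCGTG. Among the 102 promoters of 79 genes of this array the shares were, in the same order, 2.94%, 1.96%, 3.92%, 24.5% and 51.0%. A match describes letters only.

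Hif1a, the gene targeted in these mice, was above background on all 4 arrays. Its density was 18939 in HET at day 10 and 5509 at day 7, against 30822 and 137 in WT. The day 10 array was the brighter in each genotype, and the day 7 density was higher on the array labelled HET than on the WT one, as it was for 97 of the 100 genes. That count includes genes near the lowest HET day 7 density of 248, which is itself above the WT day 7 median of 4.66. Hif1a stood well above 248 on the HET day 7 array. By rank Hif1a stood 14th on the HET day 7 array and 15th on the WT day 7 array. The sources used here do not say where on the gene the probe lies, so this signal does not check the labels. Without normalization the difference was 1.84 in HET and 7.56 in WT. After quantile normalization it was -2.22 in HET and 0.71 in WT, and the fitted value of -0.76 had a standard error of 0.86 (limma adjusted p = 0.66).

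Among secreted and other hypoxia targets, 13 of 25 listed genes are on the array and 7 were above background on at least 1 array. Of these, 5 passed as higher without normalization, 4 with reference gene scaling and 1 with median scaling, beside 61.3%, 43.5% and 8.06% of all genes tested. Their median difference was 4.40 without normalization, close to the 4.24 of all genes tested. Bhlhb2 (now Bhlhe40), a hypoxia-responsive transcriptional repressor gene, had densities of 3333 in HET at day 10 and 267 at day 7, against 8227 and 19.6 in WT. It passed without normalization at 6.85 (standard error 1.12, limma adjusted p = 0.015), while its rank in WT was 22nd at both days and its quantile difference there 0.00. Hmox1, the gene of the heme-degrading enzyme heme oxygenase 1, was below background at day 7 in both genotypes. Its densities were 1103 in HET at day 10 and 256 at day 7, against 323 and 0 in WT, and the fitted difference was 4.40 without normalization (limma adjusted p = 0.0096) and 1.65 after quantile normalization (limma adjusted p = 0.088).

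Vegfa, the main endothelial growth factor gene, was above background in HET at day 10 only, at a density of 1030 against 258 at day 7. In WT it was 48.6 at day 10 and 0.333 at day 7, both below background. Its difference of 3.18 without normalization did not pass (standard error 1.34, limma adjusted p = 0.12). Ece1, which encodes the enzyme that makes active endothelin and is the only member of the endothelial marker list on the array, had densities of 9939 in HET at day 10 and 556 at day 7, against 7243 and 80.2 in WT. It passed without normalization at 5.50 (limma adjusted p = 0.0063), and after quantile normalization it stood at -1.31 with a standard error of 0.41.

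Of 20 genes listed under glucose transport and glycolysis, 5 are on the array and 3 were above background anywhere, with a median of 0.90 without normalization. Hk2, which encodes hexokinase 2 of the first step of glycolysis, had densities of 554 in HET at day 10 and 256 at day 7, both below background there, against 312 and 20.6 in WT. It passed without normalization at 3.45 (limma adjusted p = 0.0096), whereas its quantile difference in WT was -2.48. Slc2a4, the gene of the insulin-responsive glucose transporter of muscle and fat, was above background only in WT at day 7, at a density of 13.3 against a brightest control of 12.7, and its density was 1.33 in WT at day 10. The fitted Slc2a4 difference without normalization was 0.90, but -1.68 when background correction was left out too.

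Col1a1, the main collagen gene of bone and the only osteoblast list member above background, had densities of 49757 in HET at day 10 and 45580 at day 7, against 49000 and 41175 in WT. Its fitted difference was 0.19 without normalization (standard error 0.30, limma adjusted p = 0.62), with the day 10 spots near the ceiling in both genotypes. The HET day 7 spot was near the ceiling too, so the HET pair gives no difference and the fitted value is no measure of stability. No gene of the cartilage list is on the array. Plod3, which encodes a collagen-modifying lysyl hydroxylase, was below background at day 7 in both genotypes, with densities of 1298 in HET at day 10 and 265 at day 7, against 657 and 6.99 in WT. It passed at 4.65 without normalization (limma adjusted p = 0.0063) and was at -0.06 after quantile normalization. Plau, the urokinase gene of matrix breakdown, was above background only in WT at day 10, at a density of 286 against 3.99 at day 7. Ctgf, which encodes a matrix-associated growth regulator, stood at 46952 in HET at day 10 and 47096 at day 7, against 48552 and 39709 in WT.

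Rps2, a gene of the small ribosomal subunit, had densities of 43573 in HET at day 10 and 297 at day 7, against 29857 and 17.3 in WT. At day 7 it was below background in HET and just above it in WT. It had the highest unnormalized difference of all genes, 9.31 (standard error 0.83, limma adjusted p = 0.0063), and 3.65 after quantile normalization, where HET stood at 3.32 or higher and WT at 2.82. Rpl13a, which encodes a large-subunit protein and serves as a reference gene, had mean densities of 10190 in HET at day 10 and 437 at day 7, against 2170 and 12.7 in WT. Its pair of spots differed by a standard deviation of 1.05 log2 units on the WT day 10 array, the widest of the 7 sets of repeat spots above background and below the ceiling, whose median was 0.0348. It passed at 5.90 without normalization but lay at -0.34 after quantile normalization.

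Rps7, by contrast, was bright at both days, with densities of 49315 in HET at day 10 and 27063 at day 7, against 48887 and 32635 in WT. Psmb3 stood at 49370 and 37155 in HET and at 49235 and 39666 in WT. Of the 10 genes listed under ribosome, translation and proteasome 7 are on the array and 5 were above background. Of these, 2 passed as higher without normalization and 2 as lower under median scaling, beside 61.3% and 14.5% of all genes tested. The 2 lower were Eef1a1 and Psmb3, both near the ceiling at day 10. Ppia, Gapdh and Actb, at the ceiling at day 10, had unnormalized differences of 0.30, 0.69 and 0.10, which did not pass. Actb was at the ceiling at day 7 in HET too.

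Of 6 apoptosis and survival genes on the array 4 were above background, of which Bax and Cstb were so in WT only. All 4 passed as higher without normalization, beside 61.3% of all genes tested. After quantile normalization 2 of them lay above 0 and 2 below it, with a median of 0.31 against 0.29 over all genes tested. Pea15 (now Pea15a), which encodes a phosphoprotein that binds death-receptor adaptors and ERK, had densities of 8409 in HET at day 10 and 258 at day 7, against 10633 and 2.66 in WT. Its fitted difference was 8.21 without normalization (standard error 0.75, limma adjusted p = 0.0063) and 3.61 after quantile normalization (standard error 0.35, limma adjusted p = 0.074). Bcl2, the founding survival gene of its family, had densities of 4878 in HET at day 10 and 259 at day 7, against 925 and 5.99 in WT, and passed at 5.97 (limma adjusted p = 0.009). Bax, which promotes apoptosis, differed in its pattern. Its densities were 328 in HET at day 10 and 329 at day 7, both below background, against 512 and 16.0 in WT, where it was above background at both days. Bax passed at 2.65 without normalization (limma adjusted p = 0.037), below the 4.24 of all genes tested, and lay at -2.62 after quantile normalization. That pass is no measure of a rise in HET, where the densities of the 2 days were nearly equal before background correction. Without the correction the fitted Bax value was 2.46 (limma adjusted p = 0.31). Cstb, the gene of the protease inhibitor cystatin B, was above background only in WT at day 10, at 144.

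Redox and mitochondrial genes held 3 that passed without normalization and with reference gene scaling, of 4 above background, among them Hmox1, beside 61.3% and 43.5% of all genes tested. Sod2, which encodes the mitochondrial superoxide dismutase, had densities of 2199 in HET at day 10 and 261 at day 7, against 495 and 1.997 in WT (5.01 unnormalized, limma adjusted p = 0.037). Ucp2, a mitochondrial carrier gene, had 1906 and 256 in HET, against 505 and 0 in WT (5.09 unnormalized, limma adjusted p = 0.041). Both were below background at day 7 in both genotypes. Cat, the catalase gene, was above background on all 4 arrays, with densities of 1227 in HET at day 10 and 812 at day 7, against 4734 and 90.9 in WT. Without normalization its 3.20 did not pass (standard error 1.23, limma adjusted p = 0.11). Catalase lost rank in both genotypes, standing 46th in HET at day 10 and 17th at day 7, against 26th and 16th in WT, and its quantile difference of -3.28 was the lowest of all genes (limma adjusted p = 0.15).

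In the list of transcription and signalling 10 of 12 genes on the array were above background, and 6 passed as higher without normalization, a share of the list near the 61.3% of all genes. Khsrp, which encodes an RNA-binding protein of splicing and mRNA decay, had densities of 6317 in HET at day 10 and 349 at day 7, against 422 and 25.6 in WT, and did not pass at 4.37 (standard error 1.65). Dr1, the gene of a repressor that binds the TATA-binding protein, had 583 and 310 in HET, both below background, against 1781 and 13.0 in WT. Notch1, a cell-surface receptor gene, was above background at day 10 only, at 1126 in HET and 126 in WT, and passed at 3.81 without normalization (limma adjusted p = 0.034). Ppara, a nuclear receptor gene of fatty acid use, showed the same pattern at 1734 and 150 and did not pass at 4.06. Ppp2cb, a catalytic subunit gene of protein phosphatase 2A, had 39546 in HET at day 10 and 13470 at day 7, against 41139 and 1083 in WT, and did not pass at 3.40.

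In all, 26 genes were below background at day 7 in both genotypes and above it at day 10, and those not yet described include genes of the cytoskeleton and of protein modification. Spnb2 (now Sptbn1), a spectrin gene of the membrane skeleton, had densities of 15031 in HET at day 10 and 314 at day 7, against 14178 and 6.99 in WT, and passed at 8.05 without normalization (standard error 0.89, limma adjusted p = 0.0085). Uble1a (now Sae1), which encodes a subunit of the SUMO-activating enzyme, had 2393 and 261 in HET, against 2999 and 0.333 in WT, and passed at 6.39 (limma adjusted p = 0.0063). Iqgap1, a scaffold gene of the actin cytoskeleton, had 1735 and 258 in HET, against 1022 and 0.333 in WT, and passed at 5.45 (limma adjusted p = 0.0063). Sumo2 itself stood near the ceiling at day 10, with 47535 and 42986 in HET and 47567 and 36345 in WT, and its quantile difference was -0.79. With the threshold shared by the 4 arrays, 11 of the 26 genes kept the pattern, namely Bcl2, Camk2g, Fnbp3, Gap43, Il1b, Il6st, Iqgap1, Pea15, Sdh1, Spnb2 and Uble1a. Camk2g, Fnbp3, Gap43 and Sdh1 were named after their values were seen.

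**Figure D3:**
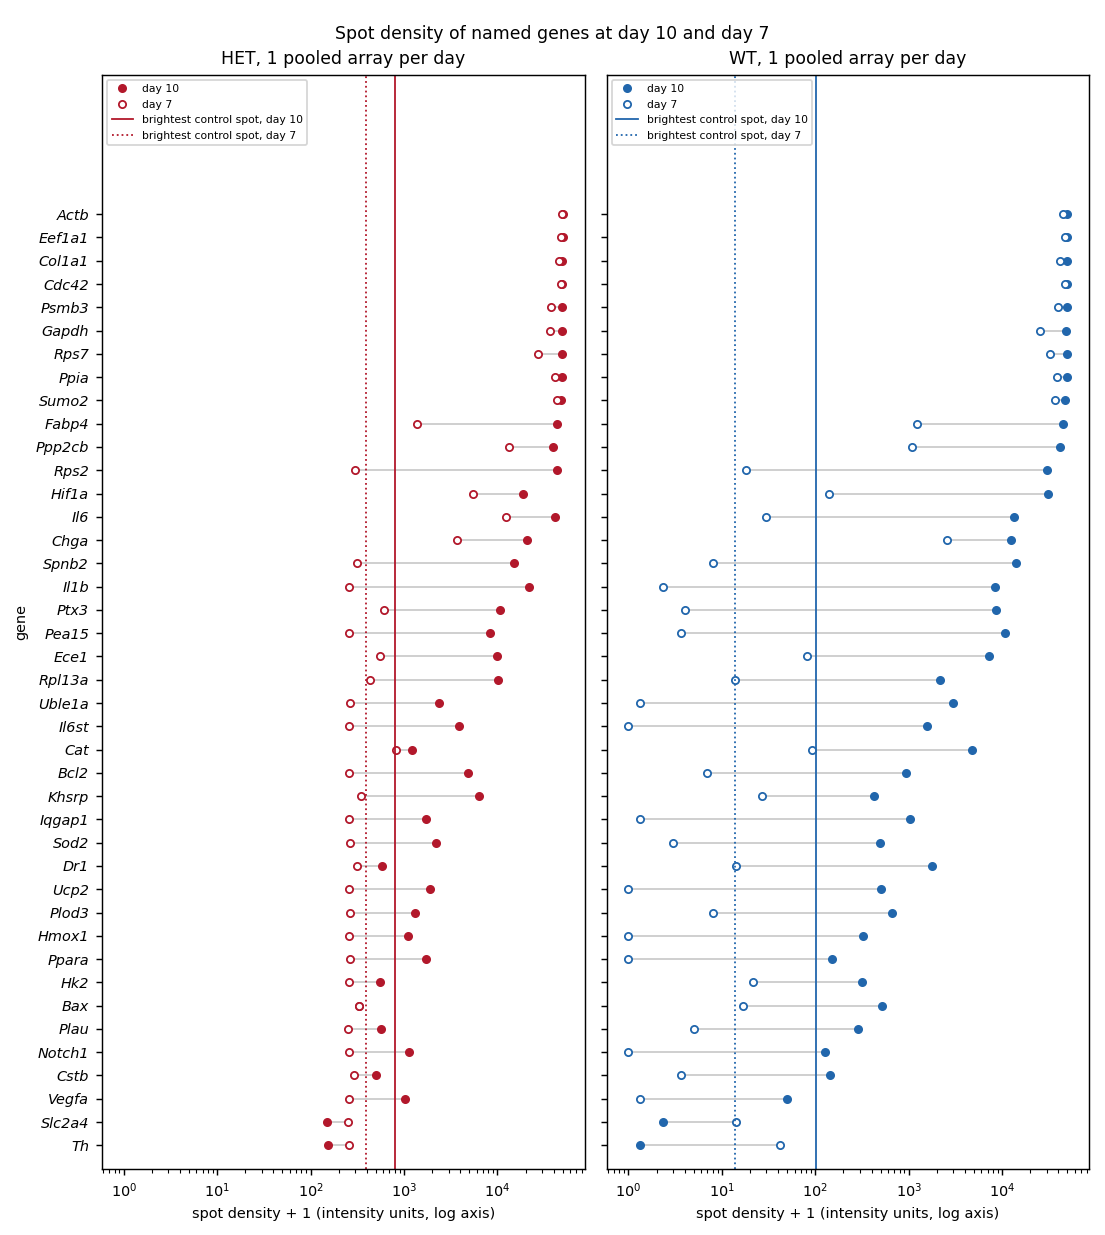
Spot density plus 1 (log axis) of the 41 genes named by rule, with HET on the left and WT on the right, day 10 as filled and day 7 as open circles, and vertical lines at the brightest control spot of each array. Nearly all filled circles lie right of the open ones, Il1b and Rps2 among the widest gaps, and Th and Slc2a4 have the open circle on the right in both genotypes.

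A gene of the adipocyte marker list passed without normalization as well. Fabp4, the fatty acid binding protein gene of adipocytes, had densities of 43925 in HET at day 10 and 1393 at day 7, against 44652 and 1217 in WT. Both day 10 densities were just under the 44984 taken as near the ceiling. The difference was 5.23 in HET and 5.17 in WT without normalization, and the fitted 5.20 passed (standard error 0.43, limma adjusted p = 0.0063). After quantile normalization Fabp4 stood at 2.42 in HET and 0.54 in WT. It is the only 1 of 5 adipocyte list genes on the array. Mylpf, a myosin light chain gene of fast skeletal muscle, had densities of 49167 in HET at day 10 and 15174 at day 7, against 49185 and 29943 in WT, and did not pass at 1.22 (limma adjusted p = 0.082). It was chosen after its values were seen, since 0 of the 5 genes of the muscle list and 0 of the 5 of the erythroid list are on the array. With bulk tissue, more cells of a type and more RNA per cell cannot be told apart, and the part of fat or muscle in the other differences was not tested.

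Both neuroendocrine genes above background lay below 0 after quantile normalization, and neither passed. Chga, which encodes the granule protein chromogranin A, had densities of 20635 in HET at day 10 and 3699 at day 7, against 12413 and 2572 in WT. The density was higher at day 10, by 2.57 log2 units in HET and 2.26 in WT (fitted 2.41, limma adjusted p = 0.0096), which is below the 4.24 of all genes tested. After quantile normalization the difference was -1.06 in HET and -3.17 in WT. Th, the gene of the first enzyme of catecholamine synthesis, was above background only in WT at day 7, at a density of 40.6 against 0.333 at day 10. In HET it was at 154 at day 10 and 256 at day 7, both below background. Under median scaling Th was called lower, at -3.26 (limma adjusted p = 0.035).

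The day difference was set side by side in the genotypes without a test, since each value rests on 1 pair of arrays. Without normalization 44 genes had a difference or a bound in both. Of these, 30 were below background at day 7 in 1 or both genotypes and 6 were near the ceiling at day 10, so their values are limits with no order. The other 8, namely Cat, Chga, Ece1, Fabp4, Hif1a, Il6, Ppp2cb and Rpl13a, were measured on all 4 arrays. Of these, Fabp4 at day 10 (43925 in HET and 44652 in WT) was just under the ceiling cutoff of 44984, so its order is uncertain. The HET difference was the smaller one for 5 of the 8 and the larger one for 3. That split depends on the background correction. Without it Fabp4 (4.98 in HET and 5.20 in WT) and Rpl13a (4.64 and 7.14) had the smaller difference in HET too. With it the widest gaps were those of Il6 (1.77 in HET and 7.95 in WT), Hif1a (1.84 and 7.56), Cat (1.06 and 5.34) and Ppp2cb (1.58 and 5.21). These 4 were among the 97 of 100 genes with a higher density on the HET than on the WT day 7 array. That count includes genes near the lowest HET day 7 density of 248, while these 4 were above background on both day 7 arrays.

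**Figure D4:**
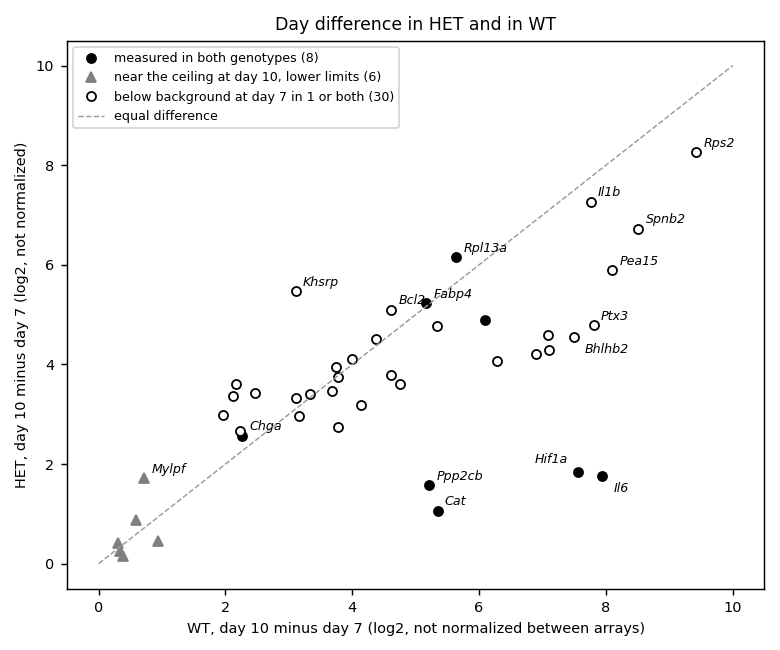
Day 10 minus day 7 difference (log2, not normalized between arrays) in HET (vertical axis) and in WT (horizontal axis) for the 44 genes with a difference or a bound in both, as filled circles where measured in both genotypes (8), triangles where near the ceiling at day 10 (6) and open circles where below background at day 7 in 1 or both (30). Triangles and open circles are limits, and among the filled circles Il6, Hif1a, Ppp2cb and Cat lie farthest below the line of equal difference.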

How the data were processed

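Spot density, an intensity on a linear scale with 1 average value per spot and no local background, was read from the scanner files the authors deposited, per the file headers. The sources used here name no image software. Per the labels' protocols, 3 ug of RNA pooled from 3 animals was amplified and labelled with biotin. The authors' deposited series matrix holds a ratio per spot. All filled values equalled, within 1e-06, the density minus the array's lowest over the same for the mean of Actb, so scale and direction are settled. Their medians were 0.176 and 0.748 in HET at days 10 and 7, and 0.195 and 0.00181 in WT. They cover unlike sets of spots, with 54 and 24 filled in HET and 48 and 43 in WT.

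Densities were corrected with limma's normexp (limma 3.58.1, R 4.3.3) at an offset of 25.4, 10% of the median gene spot density of the 6 hypoxia arrays, taken to log2, averaged per gene and quantile normalized over those arrays. lmFit and eBayes fitted day with genotype as a block (2 residual degrees of freedom), two-sided, with Benjamini-Hochberg adjustment over 62 genes and a threshold of 0.05. The fit was also run on simulated data with independent noise and planted day differences, without a scanner ceiling, a brightness shift between arrays or a background filter. That run does not check how those features bear on the results. Genes named are Hif1a, the reference genes, the 10 highest and 10 lowest same-sign differences (7 qualified as lowest), up to 4 per list, list members near the ceiling and those opposite in the genotypes, 41 in all. Members, lists and tests were chosen with earlier results of these data known. The precision is limited by 1 array per group. Of 100 symbols 84 are current in RefSeq and 16 are older names. Promoters were found for 79 genes. The angiogenesis arrays were not used.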

Additional observations from a re-analysis of the deposited data

Results flagged for a closer look

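After quantile normalization 4 genes with a difference or bound in both genotypes had differences of opposite sign, which was not tested since each genotype has 1 array per day. Hif1a was at -2.22 in HET and 0.71 in WT, a gap of -2.93 log2 units. Ppp2cb was at -1.66 in HET and 0.41 in WT, a gap of -2.06. For Ptx3 the HET value was -0.69 and the WT bound at least 1.24, a gap of -1.93. Il6 was at -0.41 in HET and 0.74 in WT, a gap of -1.15. Without normalization all 4 were above 0 in both genotypes. No group had the 4 samples that a test for a stray sample needs.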

How the results depend on the processing

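The scaling between arrays decided most results, and the ceiling, the control spots and 1 array per group limit them. No paired analysis was possible because the labels give no replicate numbers. After quantile normalization the genes at least 2-fold higher and lower at day 10 were 3 and 4 in HET and 4 and 8 in WT, with 1 and 2 in both, and the limma test called 0 either way. Without normalization these were 43 and 0 in HET, 45 and 0 in WT, 38 and 0 in both, and 38 called higher, a count that was 0 without background correction and 0 to 45 with 1 of the 4 arrays left out. With reference gene scaling 34 were higher and 4 lower in HET, 37 and 8 in WT, 28 and 3 in both, and 27 were called higher. With median scaling 5 were higher and 11 lower in HET, 25 and 10 in WT, 5 and 6 in both, and 5 were called higher and 9 lower. Those 9, all but Th, were near the ceiling at day 10. With no filter on dim genes there were 20 and 20 in HET, 21 and 21 in WT, and 13 and 8 in both. A shared threshold left 0 and 1 in WT and 0 and 1 in both, with 34 and 14 WT genes above background at days 10 and 7. The second-brightest control, added after the data were seen, gave 7 and 11 in HET and 4 higher in both, with 35 HET genes above background at day 7. In the authors' deposited ratios, 10 and 0 of 18 filled genes were higher and lower in HET, 15 and 0 of 26 in WT and 8 and 0 in both, and 3 of 15 were called. Without the genotype block 5 were called higher.

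Of the 41 named genes, 15 kept the direction of their fitted difference under every alternative that gave them a value, though of these only Fabp4 had a deposited ratio on all arrays and Plau had no value under the shared threshold. They were Bcl2, Fabp4, Hmox1, Il1b, Il6st, Iqgap1, Notch1, Pea15, Plau, Ppara, Rps2, Sod2, Spnb2, Uble1a and Ucp2. Those that turned without normalization were Bax 2.65, Cat 3.20, Cdc42 0.048, Chga 2.41, Col1a1 0.19, Cstb 2.70, Dr1 4.13, Ece1 5.50, Hif1a 4.70, Hk2 3.45, Khsrp 4.37, Plod3 4.65, Ppp2cb 3.40, Slc2a4 0.90 (but -1.68 without background correction as well), Sumo2 0.27, Th 0.42 (but -2.85 without background correction as well), Ppia 0.30 and Rpl13a 5.90. With reference gene scaling they were Bax 0.91, Cat 1.46, Chga 0.67, Cstb 0.95, Dr1 2.39, Ece1 3.75, Eef1a1 -1.68, Hif1a 2.95, Hk2 1.70, Khsrp 2.63, Plod3 2.91, Ppp2cb 1.65, Psmb3 -1.38, Rps7 -1.02, Gapdh -1.05, Rpl13a 4.15 and Actb -1.65. With median scaling they were Dr1 0.45, Ece1 1.81, Eef1a1 -3.62, Hif1a 1.02, Khsrp 0.69, Plod3 0.97, Psmb3 -3.32, Rps7 -2.95, Vegfa -0.50, Gapdh -2.99, Rpl13a 2.21 and Actb -3.58. In the deposited ratios they were Chga 2.33, Col1a1 0.094, Ece1 5.65, Hif1a 4.73, Ppp2cb 3.32, Sumo2 0.17, Ppia 0.20 and Rpl13a 5.95. Ppia turned to 0.21 with the brightest spot of a gene, and Col1a1 to 0.0060 with quantiles over 4 arrays. Leaving out 1 of the 4 arrays in turn gave the ranges Actb -0.0045 to 0.025, Col1a1 -0.048 to 0.041, Cstb -2.20 to 0.19, Eef1a1 -0.030 to 0.057, Hif1a -1.93 to 0.42, Hk2 -2.94 to 0.88, Il6 -1.36 to 1.69, Plod3 -0.35 to 0.23, Ppp2cb -1.86 to 0.61, Psmb3 -0.48 to 0.81 and Ptx3 -0.23 to 2.99, with 0 genes called after quantile normalization each time. The cause of these turns was not tested.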
